A study of Homo sapiens with 18 samples.

Results

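The ligands of the tumour necrosis factor (TNF) superfamily were followed in 3 chronic lymphocytic leukaemia (CLL) cell lines with and without stimulation of Toll-like receptor 9 (TLR9). The 10 ligand genes were taken by symbol from the deposited count table: TNF, LTA, LTB, CD70, TNFSF4, TNFSF8, TNFSF9, TNFSF10, TNFSF13 and TNFSF13B. All 10 were among its 56609 genes, and all 10 were among the 31872 genes with at least 10 reads summed over the libraries. The rule was the symbol alone and used no measured value, although the ligands were chosen with earlier results of these data known.

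Members of this family are made as trimeric membrane proteins of type II, and several are shed or secreted. Each binds one or a few receptors of the TNF receptor superfamily, which recruit TRAF adaptors and feed into NF-κB signalling or, for the death receptors, into apoptosis. On B cells they act in both directions: TNF, lymphotoxin and the costimulatory ligands are displayed or released by activated B cells, whereas BAFF and APRIL are survival factors that B cells receive. TLR9 is the endosomal sensor of unmethylated CpG DNA, and it signals through MYD88 to NF-κB, a known regulator of TNF and the lymphotoxin genes.

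The lines were HG3, MEC2 and PCL12, each an EBV-positive CLL line, so each stands for 1 established line rather than for patients. The values here are RNA levels, and ligand protein and surface display are not analysed here. Each line was sampled in 3 replicate series, and each series had 1 culture with the class B TLR9 agonist CpG ODN-2006 at 2.5 µg/ml for 4 h and 1 unstimulated culture, giving 18 libraries in 6 groups of 3. No source says how the 3 series of a line were separated, so p-values measure the spread between these samples, which may be technical. Libraries held 20382943 to 67308932 assigned reads (median 34187430), so 3 reads corresponded to 0.0446 to 0.147 CPM by library total. Levels of genes are given as CPM of edgeR, in which each total is multiplied by its TMM scaling factor. The mitochondrial share was 20.2% in HG3 unstimulated replicate 2 and 19.7% in MEC2 CpG replicate 2, against 2.82 to 9.28% in the others. All 7 B-cell markers were at 1 CPM or more in every library. Markers of other cell types, by library total, summed to 0.902 to 8.38 CPM for monocytes, 1.04 to 10.9 CPM for NK cells, 34.9 to 132 CPM for T cells and 5.34 to 74.6 CPM for stromal cells. Plasma-cell markers summed to 125 to 570 CPM, with all 4 at 1 CPM or more in every library. The T-cell sum was carried by TRAC (34.4 to 128 CPM). CD3E and CD4 reached 2.38 and 3.77 CPM, while CD3D had no read in 5 of 6 groups. The stromal sum, mostly COL1A1, was higher with CpG in MEC2 without overlap (17.1 to 35.3 against 10.2 to 11.5 CPM) and overlapped in the other lines, and the NK-cell sum was lower with CpG in PCL12 without overlap (5.47 to 6.49 against 6.98 to 10.9 CPM). The part of these markers in any difference was not tested.

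PCL12 replicates 2 and 3 stood apart from replicate 1, with and without CpG. Over 45 genes chosen as high in MEC2 and low in PCL12 replicate 1, these libraries stood at 29.0 to 31.3% of the MEC2 level. Replicate 1, which was used to choose the genes, stood at 2.26 to 2.36%. HG3 was not used in that choice, so the genes are not shown to be specific to MEC2. Ligand and receptor calls that involve PCL12 are therefore given with and without replicates 2 and 3. The part of these transcripts in any difference was not tested.

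TNF and LTA were the ligands that were higher after CpG in every replicate pair of every line. TNF is the founding cytokine of the family and drives inflammation through TNFRSF1A and TNFRSF1B. LTA, lymphotoxin alpha, is secreted as a homotrimer that binds the same receptors, or is held at the membrane by LTB. Averaged over the lines the fitted change was 1.83-fold for TNF and 2.03-fold for LTA. The other ligands did not show this pattern, and LTB came nearest with 8 of 9 pairs.

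The genes are neighbours on chromosome 6 (GRCh38). LTA lies at chr6:31572054-31574324 on the plus strand, TNF begins 1240 bases further on at chr6:31575565-31578336 on the same strand, and LTB lies 2188 bases beyond TNF at chr6:31580525-31582522 on the minus strand. Because 2 neighbours moved together, the sequence before the start of TNF is shown, together with the places where an NF-κB consensus motif was found in the RefSeq promoter windows of the ligands (GRCh38.p14, 8 of 10 genes matched, CD70 and TNFSF8 not matched). The motif was GGGRNWYYCC on either strand, where R is A or G, W is A or T, Y is C or T and N any base. No mismatch was allowed, so sites that depart from this pattern were not counted. The 250 bases upstream of TNF, chr6:31575315-31575564 (plus strand), hold no exact match to this motif. In the other sequences the motif is in capitals within 30 bases. For LTA, chr6:31572176-31572205 (plus strand), it sits 103 to 94 bases before 1 of its 2 RefSeq starts and downstream of the other, where GENCODE annotates an exon of the gene. For LTB, chr6:31582492-31582521 (minus strand), the match is on the opposite strand, 86 to 77 bases before 1 of 2 RefSeq starts that lie 1 base apart, and also overlaps an annotated exon. For TNFSF13, chr17:7558131-7558160 (plus strand), it sits 141 to 132 bases before 1 of its 2 RefSeq starts, outside the gene.
TNF: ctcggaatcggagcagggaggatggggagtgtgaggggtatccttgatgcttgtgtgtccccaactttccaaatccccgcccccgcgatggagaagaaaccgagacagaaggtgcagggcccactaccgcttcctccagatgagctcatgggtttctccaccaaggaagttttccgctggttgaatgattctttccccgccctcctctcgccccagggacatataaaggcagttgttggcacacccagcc
LTA: ctaagccctgGGGGCTTCCCcgggccccag
LTB: aggggtgtgcGGAAAGTCCCagccaggtgt
TNFSF13: tcctcctgcgGGGAAATCCCttcctggctg

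The other ligand genes are scattered over the genome (GENCODE v44, GRCh38): CD70 at chr19:6583183-6604103 (minus strand) with TNFSF9 at chr19:6531026-6535924 (plus), TNFSF4 at chr1:173183731-173207331 (minus), TNFSF8 at chr9:114893343-114930595 (minus), TNFSF10 at chr3:172505508-172523475 (minus), TNFSF13 at chr17:7558292-7561608 (plus) and TNFSF13B at chr13:108251240-108308484 (plus).

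The motif, searched on both strands, occurred in 1828 of 35116 promoter windows of the same length (5.21%). It had no match in the windows of TNF, TNFSF4, TNFSF9, TNFSF10 and TNFSF13B. A match or its absence describes letters in a window and was not related to the response.

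In HG3, TNF stood at 51.9, 47.6 and 52.4 CPM in unstimulated replicates 1, 2 and 3, and at 104, 93.0 and 69.9 CPM with CpG. In MEC2 it stood at 81.2, 66.8 and 56.1 CPM without and 139, 171 and 70.1 CPM with CpG. In PCL12 it stood at 21.4, 24.9 and 23.7 CPM without and 39.3, 52.5 and 38.9 CPM with CpG. In HG3 and PCL12 the lowest stimulated library was above the highest unstimulated one, whereas in MEC2 the groups overlapped through replicate 3. Each stimulated library was above the unstimulated library of its own number, by log2 ratios for replicates 1, 2 and 3 of 1.00, 0.97 and 0.41 (HG3), 0.78, 1.36 and 0.32 (MEC2), and 0.88, 1.07 and 0.72 (PCL12). The smallest ratios of HG3, MEC2 and PCL12 all came from replicate 3. The largest came from MEC2 replicate 2, whose stimulated library had 19.7% mitochondrial reads, and the part of this in the value was not tested. Without that library the fitted change of TNF in MEC2 was 0.63. Leaving out MEC2 CpG replicate 3 gave 1.19, and leaving out MEC2 unstimulated replicate 1 gave 1.01. The median of the 9 log2 ratios was 0.88 and the range 0.32 to 1.36. An exact sign permutation over the 9 pairs gave p = 0.00391 (two-sided), the smallest that 9 pairs allow. This test was chosen after seeing the data, and the pairs of a line share that line. As in any bulk sample, a change in RNA per cell and a change in the share of cells that express a gene cannot be told apart.

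LTA stood in HG3 at 41.9, 23.2 and 35.3 CPM without and 124, 63.5 and 43.1 CPM with CpG. In MEC2 it stood at 68.5, 74.8 and 39.8 CPM without and 139, 108 and 61.9 CPM with CpG. In PCL12 it stood at 19.1, 38.3 and 15.9 CPM without and 64.2, 64.1 and 29.3 CPM with CpG. The groups did not overlap in HG3 and overlapped in MEC2 and PCL12, yet all 9 pairs were higher with CpG. For both TNF and LTA, MEC2 stimulated replicates 1 and 2 were each above unstimulated replicates 1 and 2. The log2 ratios came to 1.57, 1.45 and 0.29 (HG3), 1.02, 0.53 and 0.64 (MEC2), and 1.75, 0.74 and 0.88 (PCL12), with a median of 0.88. The HG3 ratio of 1.45 used unstimulated replicate 2, the lowest of its group. That library had 20.2% mitochondrial reads, and the part of this in the value was not tested. MEC2 replicate 3 was the lowest of its group both with and without CpG. The exact sign permutation again gave the smallest p that 9 pairs allow, 0.00391. With 3 libraries against 3 in a line, an exact permutation test cannot go below 0.1, and TNF and LTA gave 0.1 where the groups did not overlap, 0.2 or 0.3 elsewhere.

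**Figure D1:**
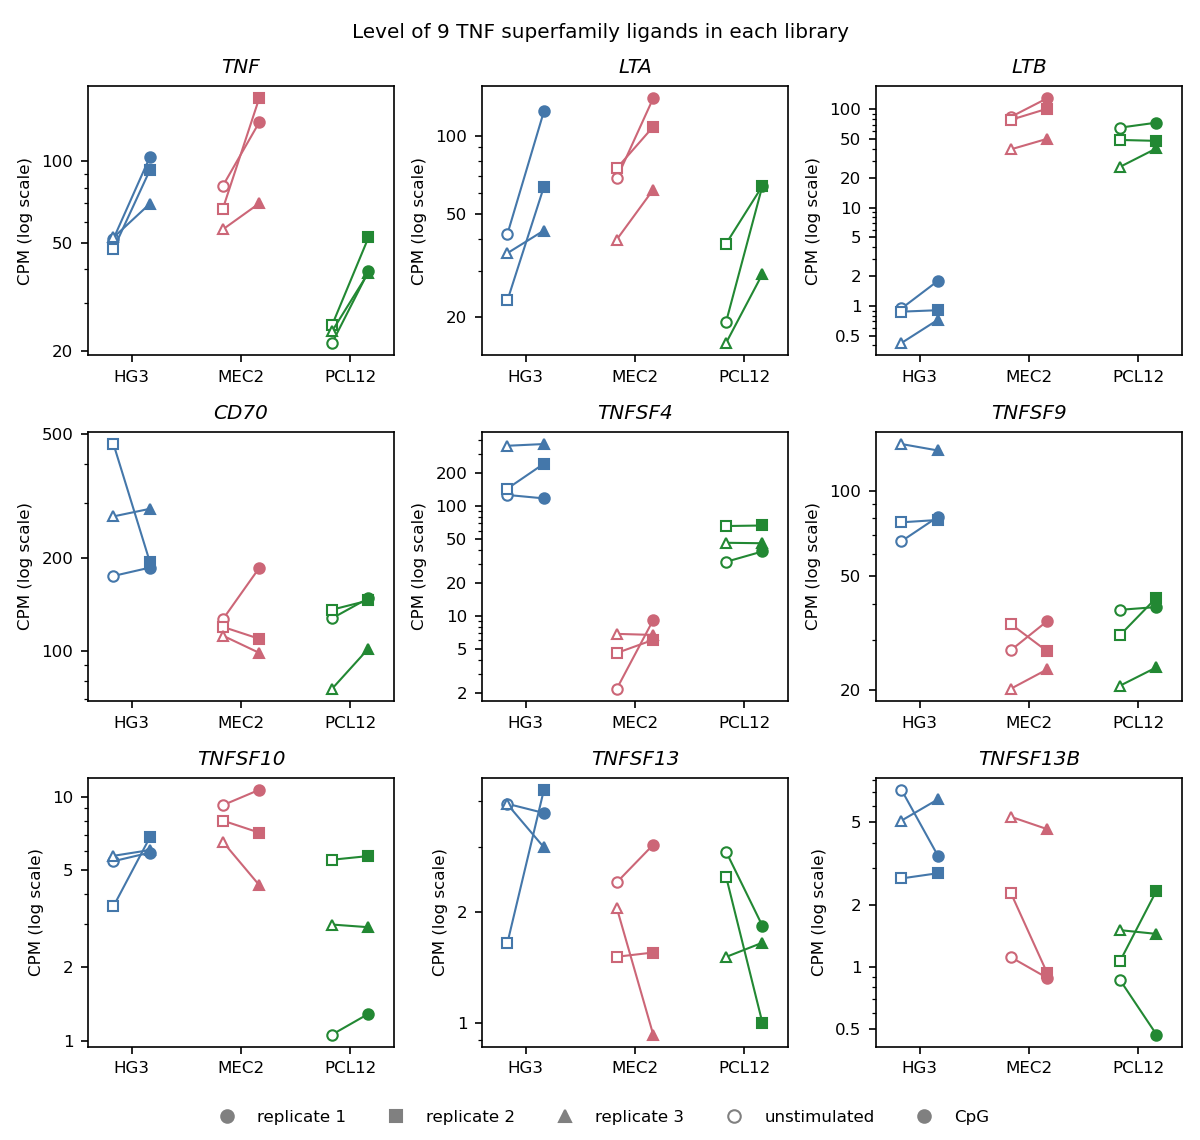
Level of 9 ligands in each of the 18 libraries, in CPM on a log axis that differs between panels; TNFSF8 is left out because most libraries had no read. Open symbols are unstimulated and filled symbols CpG-stimulated libraries, the shape gives the replicate, and a line joins the libraries of a number; TNF and LTA lines slope up in 9 of 9 pairs.

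Of the 10659 genes whose mean CPM reached 5, 78 (0.732%) were higher with CpG in all 9 pairs and 54 (0.507%) were lower in all 9. The set contained 7 of the ligands, of which TNF and LTA were higher throughout. Counted without pairing, all 3 stimulated HG3 libraries lay above all 3 unstimulated ones for TNF, LTA and TNFSF10, 3 of 7 ligands against 0.91% of the genes. In MEC2 no ligand did so (0 of 7 against 2.6% of the genes), and in PCL12 TNF alone did (1 of 7 against 1.06%).

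**Figure D2:**
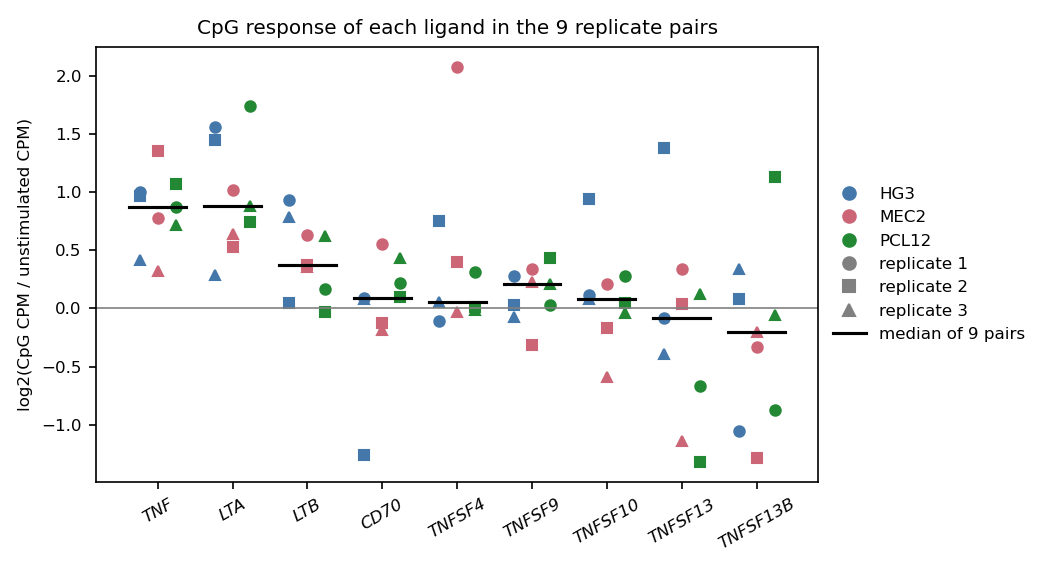
Log2 ratio of the stimulated over the unstimulated CPM for 9 ligands in the 9 replicate pairs, coloured by line and shaped by replicate, with the median of the 9 pairs as a bar. TNF and LTA lie above 0 in every pair and share a median of 0.88, while TNFSF13 and TNFSF13B scatter on both sides of 0.

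Each response was tested with edgeR's quasi-likelihood test in 1 fit of the 6 group means. A gene was called differentially expressed (DEG) at a nominal p below 0.01 with a log2 fold change of at least 1 in size, the definition of the study's methods, and the Benjamini-Hochberg adjusted p over all 31872 genes is given beside it. No ligand met the definition within a line, where it called 0.496% of genes for HG3, 0.251% for MEC2 and 0.116% for PCL12. At an unadjusted p below 0.05 the fit counted 2 of 10 ligands for HG3 (3.73% of genes), 1 for MEC2 (2.46%) and 2 for PCL12 (2.09%), and DESeq2 called LTA in HG3 by the same definition. Averaged over the lines the definition called 0.527% of genes (0.282% as higher) and 1 ligand, LTA. The adjusted p passed 1 gene for HG3 (0.00314%), 1 for MEC2 (0.00314%), none for PCL12 (0%) and 3 in the average (0.00941%), and none of these was a ligand.

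TNF met the nominal p of the definition in each line and missed its fold threshold. Its log2 fold change was 0.81 in HG3 (SE 0.27, 95% interval 0.26 to 1.36), 0.90 in MEC2 (SE 0.27, 0.35 to 1.45) and 0.90 in PCL12 (SE 0.27, 0.35 to 1.45), with an edgeR adjusted p of 1 in each. Averaged over the lines it was 0.87 (SE 0.16, 0.55 to 1.19, edgeR adjusted p = 0.0531). LTA met the fold threshold and missed the nominal p in HG3, at 1.20 (SE 0.42, 0.31 to 2.09), and in PCL12, at 1.10 (SE 0.42, 0.22 to 1.99). Without HG3 CpG replicate 1 the HG3 value was 0.67. Of the single libraries left out, only HG3 CpG replicate 3 brought LTA in HG3 within the definition (1.49). In PCL12 only CpG replicate 3 (1.4) and unstimulated replicate 2 (1.59) did so. In MEC2 the interval of LTA, around 0.76 (SE 0.42), ran from -0.12 to 1.64, and without MEC2 CpG replicate 1 the value was 0.48. Its average was 1.02 (SE 0.24, 0.51 to 1.53, edgeR adjusted p = 1.00). That average lay so close to the threshold that leaving out any 1 of 8 libraries took it below: HG3 CpG replicate 1 (0.84), HG3 unstimulated replicate 2 (0.96), MEC2 CpG replicate 1 (0.93), MEC2 unstimulated replicate 3 (0.94), PCL12 CpG replicates 1 and 2 (0.96 each) and PCL12 unstimulated replicates 1 (0.97) and 3 (0.94).

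With the replicate pair as a block, averaged over the lines, both genes passed the adjusted p. In edgeR the blocked average was 0.83 for TNF (95% interval 0.60 to 1.07, adjusted p = 1.12e-08) and 0.99 for LTA (0.75 to 1.23, adjusted p = 7.22e-12), where the block called 0.555% of all genes. In that fit edgeR gave an infinite prior to all 31872 genes, so every gene took the spread of the trend and its p-values do not reflect the gene's own scatter. The limma-voom fit with the same block, which keeps each gene's scatter, gave 0.85 for TNF (adjusted p = 0.00581) and 1.02 for LTA (adjusted p = 0.00483), where it passed 0.1% of all genes. Leaving out each pair in turn kept the blocked edgeR average of TNF between 0.74 and 0.92 and that of LTA between 0.89 and 1.12, with adjusted p of at most 1.50e-05 and 9.22e-07. LTA no longer met the fold threshold in the blocked edgeR average.

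Within single lines the blocked calls depended on the tool. The blocked edgeR fit passed LTA in HG3 (log2 fold change 1.11, adjusted p = 0.000908) and PCL12 (1.12, adjusted p = 0.000708) but not in MEC2 (0.73, adjusted p = 0.108). It passed TNF in MEC2 (0.82, adjusted p = 0.0296) and PCL12 (0.89, adjusted p = 0.0424) but not in HG3 (0.80, adjusted p = 0.0778). In MEC2 the deviations from the group means followed the replicate numbers that set the block for replicate 3 (Pearson's r across genes 0.611), but libraries of replicates 1 and 2 correlated less within their pairs (0.189 and -0.0133) than across them (0.449 and 0.388). These fits passed 0.135% of genes for HG3, 0.333% for MEC2 and 0.0471% for PCL12. The blocked limma-voom fit passed neither gene in any line, with adjusted p of 0.539, 0.141 and 0.654 for TNF and 0.364, 0.520 and 0.507 for LTA in HG3, MEC2 and PCL12. The edgeR call of LTA in HG3 was lost without the replicate 1 pair (0.87, adjusted p = 0.160), and that in PCL12 was lost without its replicate 1 pair (0.81, adjusted p = 1.00). The edgeR call of TNF in PCL12 was lost whichever pair was left out (0.79 to 0.97, adjusted p from 0.0801 to 1.00). That in MEC2 was kept in 1 of 3 such fits (0.55 to 1.05, adjusted p from 0.0254 to 1.00) and was weakest without replicate 2.

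Without PCL12 replicates 2 and 3, PCL12 is left with 1 pair. The change of LTA in PCL12 was then 1.75 (SE 0.66) and that of TNF 0.88 (SE 0.51) without the block, both with an edgeR adjusted p of 1, in a fit that assumes that the lone pair varies like the other groups. With the block the adjusted p was 0.0147 for LTA and 1.00 for TNF. The averages were 1.25 for LTA (unblocked edgeR adjusted p = 0.859) and 0.87 for TNF (adjusted p = 1.00), and with the block 1.21 (adjusted p = 2.60e-08) and 0.84 (adjusted p = 0.000569).

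**Figure D3:**
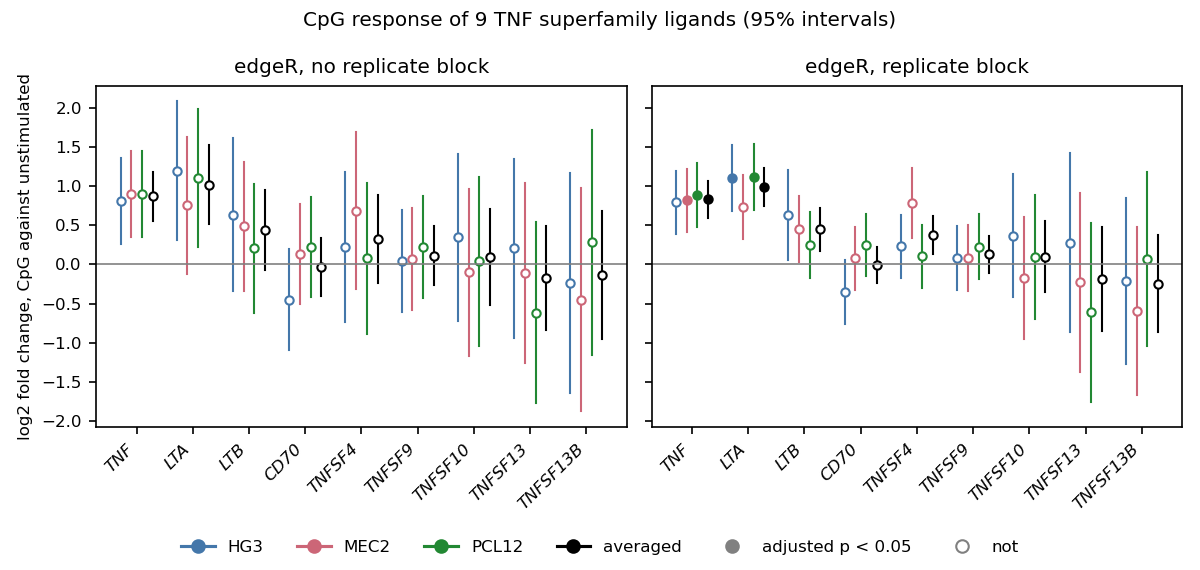
Log2 fold change of 9 ligands, CpG against unstimulated, with 95% intervals, in each line and averaged over the 3 lines, from edgeR without (left) and with (right) the replicate block. Filled points have an adjusted p below 0.05: none on the left, and on the right the averages of TNF (0.83) and LTA (0.99), TNF in MEC2 and PCL12 and LTA in HG3 and PCL12.

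The response of TNF and LTA did not differ detectably between the lines. For TNF the difference in response was 0.09 for MEC2 minus HG3 (95% interval -0.69 to 0.86), 0.09 for PCL12 minus HG3 (-0.69 to 0.86) and 0.00 for PCL12 minus MEC2 (-0.75 to 0.75). For LTA it was -0.44 (-1.68 to 0.79), -0.10 (-1.33 to 1.14) and 0.35 (-0.89 to 1.58). These intervals leave room for sizeable differences, since an LTA response in MEC2 lower than that of HG3 by over 1 on the log2 scale lies inside them. No ligand met the DEG definition in these comparisons, which called 0.543%, 0.489% and 0.286% of genes, and none was at an unadjusted p below 0.05. With the block none met the definition in edgeR or limma-voom, and those at an unadjusted p below 0.05 were, in edgeR alone, CD70 for PCL12 minus HG3 (0.61, adjusted p = 1) and TNFSF4 for PCL12 minus MEC2 (-0.68, adjusted p = 1), beside 762 and 433 of all 31872 genes.

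LTB, which anchors LTA at the membrane in a heterotrimer that binds LTBR, was higher with CpG in 8 of 9 pairs. Its log2 ratios came to 0.93, 0.05 and 0.79 (HG3), 0.63, 0.38 and 0.36 (MEC2), and 0.17, -0.03 and 0.62 (PCL12). The exact sign permutation gave p = 0.00781. The median, 0.38, was lower than that of its neighbours, and the average fitted change was 0.44 (SE 0.24, 95% interval -0.07 to 0.95), or 0.45 with the block (adjusted p = 0.171). LTB was thus not called.

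The costimulatory ligands were not called after CpG with all libraries in the fit. CD70, the ligand of CD27, was higher in 6 of 9 pairs, with an average of -0.03 (95% interval -0.40 to 0.34). In HG3 it stood at 186, 193 and 287 CPM with CpG and 174, 465 and 272 CPM without, so that the replicate 2 pair alone gave a log2 ratio of -1.27. That unstimulated library is the one with 20.2% mitochondrial reads, and the part of this in the value was not tested. TNFSF4, the ligand of TNFRSF4 on activated T cells, was higher in 6 of 9 pairs, with an average of 0.33 (-0.24 to 0.89). Its largest ratio, 2.08, came from MEC2 replicate 1 (2.18 to 9.22 CPM), next to 4.61 to 6.08 and 6.89 to 6.74 CPM in replicates 2 and 3. With the block in edgeR, TNFSF4 in MEC2 was at 0.79 (adjusted p = 0.117), and leaving out 1 pair gave 0.17 to 1.21, with an adjusted p below 0.05 in 2 of 3 such fits (lowest 0.0139) and of 1.00 without replicate 1. Its blocked average ran from 0.17 to 0.52 and passed in 2 of 9. TNFSF9, the ligand of TNFRSF9, was higher in 7 of 9 pairs, with an average of 0.11 (-0.26 to 0.49). For CD70 and TNFSF9 these intervals end below the size of the TNF average.

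TNFSF8, the ligand of TNFRSF8, was at the limit of detection. It had 16 reads in HG3 CpG replicate 3 (0.505 CPM), 10 reads in PCL12 CpG replicate 3 (0.254 CPM), 1 read in HG3 unstimulated replicate 1 and none in the other 15 libraries. It passed the filter on summed reads through these 2 libraries, and no fold is given.

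TNFSF10, TNFSF13 and TNFSF13B were low in all lines. TNFSF10, known as TRAIL, induces apoptosis through TNFRSF10A and TNFRSF10B. It stood in HG3 at 5.45, 3.56 and 5.74 CPM without and 5.91, 6.83 and 6.06 CPM with CpG, groups that did not overlap. The fitted change was 0.35 (edgeR adjusted p = 1), and the log2 ratios of the pairs were 0.12, 0.94 and 0.08. The ratio of 0.94 used the unstimulated library with 20.2% mitochondrial reads, and the part of this was not tested. Averaged over the lines the change of TNFSF10 was 0.10 (95% interval -0.52 to 0.72), and it was higher in 6 of 9 pairs. In PCL12 it differed more by replicate than by stimulation: 1.06 and 1.29 CPM in replicate 1 without and with CpG, 5.53 and 5.72 CPM in replicate 2, and 2.99 and 2.92 CPM in replicate 3. MEC2 stood at 7.94 CPM ± 1.35 (SD, n = 3) unstimulated. Replicates 2 and 3 of PCL12 had nearly equal levels of the genes chosen as high in MEC2 (31.1 and 31.3% of the MEC2 level unstimulated). Their levels of TNFSF10 were unequal, and the part of such transcripts in these levels was not tested.

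TNFSF13B, known as BAFF, supports B-cell survival through TNFRSF13C, and TNFSF13, known as APRIL, binds TNFRSF13B and TNFRSF17. TNFSF13B was higher with CpG in 3 of 9 pairs, with an average of -0.13 (95% interval -0.96 to 0.69). TNFSF13 was higher in 4 of 9 pairs, with an average of -0.17 (-0.84 to 0.49), and ranged from 0.928 to 4.29 CPM over all libraries. Neither had a direction, and their intervals are the widest of the 9 ligands with reads in most libraries. TNFSF13 overlaps the read-through gene TNFSF12-TNFSF13 on the same strand, which had no read in any library, and TNFSF13B overlaps another annotated gene on its strand whose counts were not analysed here, so the counts of both are uncertain.

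Several ligands differed between the unstimulated lines, LTB and TNFSF4 by the largest fitted amounts. LTB was close to absent in HG3, at 0.945, 0.877 and 0.421 CPM, and abundant in MEC2, at 84.0, 78.5 and 39.3 CPM, and PCL12, at 65.4, 49.0 and 26.1 CPM. Every MEC2 and PCL12 library was above every HG3 library. The log2 difference from HG3 was 6.50 for MEC2 (95% interval 5.41 to 7.58, edgeR adjusted p = 1.44e-08), or 90.3-fold, and 5.97 for PCL12 (4.91 to 7.04, adjusted p = 3.53e-08), or 62.9-fold. PCL12 replicate 1 alone gave 6.47 (adjusted p = 6.73e-08). MEC2 and PCL12, neighbours in this order, overlapped and were not called different (-0.52, adjusted p = 0.669). LTB also stayed low in stimulated HG3, at 1.80, 0.907 and 0.725 CPM, where LTA stood at 124, 63.5 and 43.1 CPM.

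TNFSF4 had the opposite order. It stood in HG3 at 127, 146 and 358 CPM, in PCL12 at 31.3, 66.3 and 46.7 CPM, and in MEC2 at 2.18, 4.61 and 6.89 CPM. The 3 lines did not overlap. MEC2 was 5.52 below HG3 on the log2 scale (95% interval of the difference -6.70 to -4.35, edgeR adjusted p = 2.14e-06), PCL12 differed from HG3 by -2.13 (adjusted p = 0.00642), and PCL12 exceeded MEC2 by 3.40 (2.33 to 4.47, adjusted p = 0.000791), or 10.5-fold. With PCL12 replicate 1 alone the last 2 differences were -2.73 (adjusted p = 0.0702, within the DEG definition) and 2.79 (adjusted p = 0.0250).

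TNFSF9 and CD70 neighbour each other on chromosome 19, 47258 bases apart, and both were highest in HG3. TNFSF9 stood at 66.5, 77.4 and 146 CPM in HG3, against 27.5, 34.1 and 20.2 CPM in MEC2 and 38.2, 31.1 and 20.7 CPM in PCL12. All HG3 libraries were above those of the other lines, with differences of -1.83 for MEC2 (95% interval -2.50 to -1.15, edgeR adjusted p = 0.000314) and -1.69 for PCL12 (adjusted p = 0.000730). CD70 stood at 126, 120 and 112 CPM in MEC2 and 127, 136 and 75.4 CPM in PCL12, all below the HG3 libraries, and differed from HG3 by -1.35 in MEC2 (adjusted p = 0.00518) and -1.43 in PCL12 (adjusted p = 0.00319). The CD70 calls rested on HG3 replicate 2, at 465 CPM against 174 and 272 CPM in replicates 1 and 3. Without that library they were -0.88 and -0.95 and no longer met the fold threshold. With PCL12 replicate 1 alone, TNFSF9 differed from HG3 by -1.32 (adjusted p = 0.161) and CD70 by -1.24 (adjusted p = 0.212), and neither was called.

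TNF was lowest in PCL12. Unstimulated levels were 68.1 CPM ± 12.6 (SD, n = 3) in MEC2, 50.6 ± 2.67 in HG3 and 23.3 ± 1.78 in PCL12, and the PCL12 libraries lay below all others. The log2 difference was -1.12 from HG3 (edgeR adjusted p = 0.00674) and -1.54 from MEC2 (95% interval -2.11 to -0.98, adjusted p = 0.00121), while MEC2 and HG3 were not called different (0.43, adjusted p = 0.350). With PCL12 replicate 1 alone the values were -1.22 (adjusted p = 0.159, not called) and -1.64 (adjusted p = 0.0694, within the DEG definition). Stimulated PCL12 reached 43.6 CPM ± 7.70 (SD, n = 3), near the unstimulated level of HG3. LTA followed the same order, at 61.0 CPM ± 18.7 in MEC2, 33.4 ± 9.45 in HG3 and 24.4 ± 12.1 in PCL12. Its differences from HG3 were not called (0.87 for MEC2 and -0.45 for PCL12, adjusted p = 0.238 and 0.573). Its difference of PCL12 from MEC2, -1.32, met the DEG definition but not the adjusted p (0.155), and the call was lost without any 1 of 4 libraries: MEC2 unstimulated replicates 1 and 2 and PCL12 unstimulated replicates 1 and 3 (-1.08 to -1.24). With PCL12 replicate 1 alone it was also not called (-1.65, adjusted p = 0.227).

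TNFSF13B met the definition for PCL12 against HG3 (-2.12, edgeR adjusted p = 0.0642). It stood at 0.866, 1.07 and 1.51 CPM in PCL12 and 7.19, 2.68 and 5.10 CPM in HG3. The call was lost without HG3 replicate 1 or 3 or any PCL12 library (-1.74 to -2.35), and with PCL12 replicate 1 alone (-2.51, adjusted p = 0.334). TNFSF10 was not called between MEC2 and PCL12 in edgeR with all libraries (-1.31, adjusted p = 0.311). It met the DEG definition in limma-voom without the replicate block (-1.6) and in edgeR without PCL12 unstimulated replicate 2 (-1.98). With PCL12 replicate 1 alone the difference was -2.87 and it was called. Against HG3 that library alone gave -2.20 (adjusted p = 0.102, within the DEG definition), where all 3 gave -0.63.

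In all, 4 of 10 ligands met the DEG definition between unstimulated MEC2 and HG3, where 10.4% of genes did, 6 of 10 between PCL12 and HG3 (10.4%), and 3 of 10 between PCL12 and MEC2 (3.9%). These comparisons share groups and are not independent. With PCL12 replicates 2 and 3 left out, 3 of 10 ligands met the definition against HG3 (7.01% of genes) and 3 of 10 against MEC2 (4.39%).

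**Figure D4:**
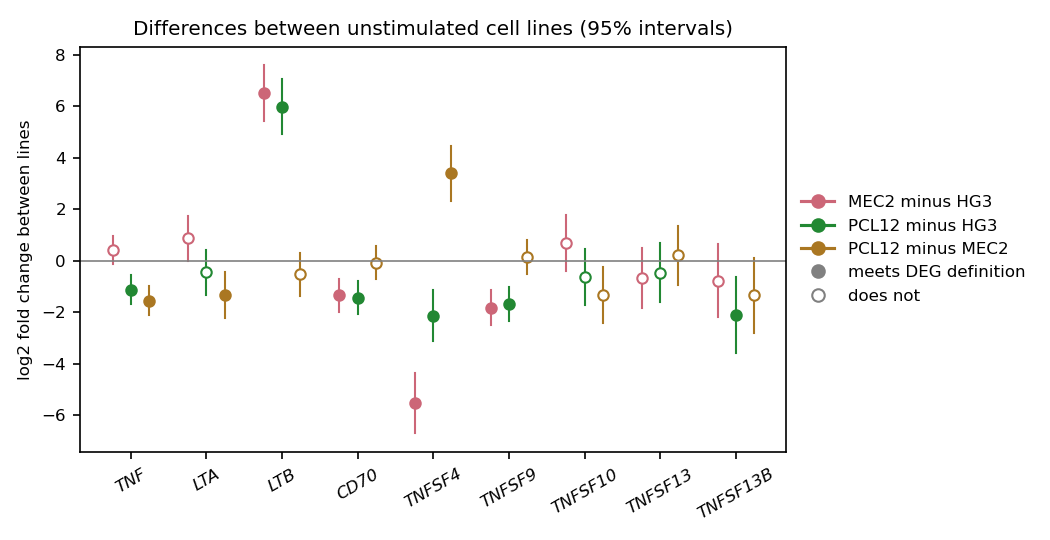
Log2 difference of 9 ligands between unstimulated lines with 95% intervals from edgeR, for MEC2 minus HG3, PCL12 minus HG3 and PCL12 minus MEC2. Filled points meet the DEG definition: LTB lies at 6.50 and 5.97 above HG3, and TNFSF4 at -5.52 and -2.13.

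Receptors of these ligands were described from a list of 16 genes. After CpG, 0, 2, 1 and 0 of them were at an unadjusted p below 0.05 for HG3, MEC2, PCL12 and the average in unblocked edgeR. Of all genes, 3.73%, 2.46% and 2.09% were so in the lines and 1287 of 31872 on average. None of the 16 met the DEG definition in these fits. With the replicate block TNFRSF4, the receptor of TNFSF4, met it in MEC2 in edgeR (1.60, adjusted p = 0.00205) and in limma-voom (1.53, adjusted p = 0.333), and TNFRSF10C met it in HG3 in limma-voom (adjusted p = 0.991). Between unstimulated lines, 9 of 16 did for MEC2 against HG3 (2 higher, 7 lower, median -0.77 against 0 for all genes), 8 for PCL12 against HG3 (3 higher, 5 lower, median -0.31) and 5 for PCL12 against MEC2 (4 higher, 1 lower, median 0.47), where 10.4%, 10.4% and 3.9% of all genes did. CD27, the receptor of CD70, was lowest in HG3, at 37.2 CPM ± 10.8, against 158 ± 12.3 for MEC2 and 197 ± 73.5 for PCL12 (SD, n = 3), with log2 differences from HG3 of 2.09 (edgeR adjusted p = 4.60e-05) and 2.41 (adjusted p = 7.49e-06). Of the receptors of TNF and LTA, TNFRSF1A differed from HG3 by -2.85 in MEC2 (adjusted p = 5.88e-06) and -1.27 in PCL12 (adjusted p = 0.0199), and from MEC2 by 1.58 in PCL12 (adjusted p = 0.0149). TNFRSF1B differed from HG3 by 1.44 (adjusted p = 0.00374) and 1.10 (adjusted p = 0.0282). The TNFSF10 death receptors were lower than in HG3 in both lines, with differences of -1.68 and -3.00 for TNFRSF10A and -1.84 and -2.23 for TNFRSF10B. TNFRSF10A also met the definition for PCL12 against MEC2 (-1.31, adjusted p = 0.0697). The decoy receptor TNFRSF10D differed from HG3 by -3.32 and -3.99, and the soluble decoy TNFRSF11B had 5.17 CPM ± 3.33 (SD, n = 3) in HG3 and no read in the 6 other unstimulated libraries. TNFRSF4 was higher in PCL12 than in MEC2 (2.56, adjusted p = 0.0320), as was its ligand, and met the definition against HG3 (1.88, adjusted p = 0.0573). The remaining calls were TNFRSF9 (-2.57) and TNFRSF10C, which is under 1 CPM in every group mean, for MEC2 against HG3, and TNFRSF13B (1.21) and TNFRSF17 (1.16), the receptors of TNFSF13, for PCL12 against MEC2. With PCL12 replicate 1 alone, 7 of 16 receptors met the definition against HG3 and 4 against MEC2, beside 7.01% and 4.39% of all genes. The calls of TNFRSF1A against HG3 (-0.68, adjusted p = 0.668) and TNFRSF17 against MEC2 (1.49, adjusted p = 0.231) were lost, and no call was gained.

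Among 7 other ligands of the family with enough reads, of 8 listed, none met the DEG definition after CpG in edgeR or in limma-voom with the block. In unblocked edgeR 1, 0, 0 and 0 were at an unadjusted p below 0.05 for HG3, MEC2, PCL12 and the average. Of all genes, 3.73%, 2.46% and 2.09% were so in the lines and 1287 of 31872 on average. TNFSF11, a ligand best known from bone, differed between lines, at 0.255 CPM ± 0.223 for HG3, 7.45 ± 0.943 for MEC2 and 34.4 ± 4.05 for PCL12 (unstimulated, SD, n = 3), and met the definition in all 3 pairs of lines, also with PCL12 replicate 1 alone (7.32 against HG3, adjusted p = 6.02e-05, and 2.40 against MEC2, adjusted p = 0.200). FASLG was also called against HG3, where it had no read, but its unstimulated means in MEC2 and PCL12 were 0.824 and 0.179 CPM, and the PCL12 call was lost with replicate 1 alone.

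Known NF-κB response genes were counted beside the ligands. Of 14 listed, all had an average log2 fold change above 0, with a median of 0.45 against 0.03 for all genes. NFKBIZ and IL6, 2 of the 14, met the DEG definition, IL6 at 0.316 CPM or less in every group mean. With the replicate block IL6 no longer met it on average in edgeR, but did in limma-voom. NFKBIZ, a nuclear IκB protein, changed by 1.52 on average (unblocked edgeR adjusted p = 0.000398) and by 2.20 in MEC2 (adjusted p = 0.0154). With the replicate block 8 of 14 passed the adjusted p on average in edgeR, which passed 0.555% of all genes, and 5 in limma-voom (NFKBIZ, CD83, TNFAIP3, ICAM1 and RELB), which passed 0.1%. In unstimulated cells 7 of the 14 were lower in MEC2 than in HG3 and none higher, with a median of -1.41 (NFKBIZ, CD83, NFKBIE, TNFAIP3, NFKB2, NFKBIA and BCL2A1). In PCL12 7 were lower than in HG3 and 1, CCL22, was higher, with a median of -1.51. Both contrasts called 10.4% of all genes. Without PCL12 replicates 2 and 3, 6 were lower and CCL22 higher (median -1.67), where 7.01% of all genes were called. Of 13 genes of proximal receptor signalling none met the DEG definition after CpG in edgeR (4 at an unadjusted p below 0.05 on average, as were 1287 of all 31872 genes), while 3 passed the adjusted p in the blocked edgeR average: TRAF1 (0.51, adjusted p = 0.0085), BIRC3 (0.48, adjusted p = 0.0216) and CFLAR (0.46, adjusted p = 0.0294). In limma-voom with the block TRAF1 alone of these passed on average, and it met the DEG definition in MEC2 (1.01, adjusted p = 0.0137). Of 11 genes for the shedding of ligands and the decay of their mRNAs, ZC3H12A, a ribonuclease that degrades inflammatory transcripts, rose by 1.29 on average (unblocked edgeR adjusted p = 0.00161), and no other gene of that list met the DEG definition after CpG.

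Likeness of pattern was measured as Pearson's r of log2 CPM over the 18 libraries, a description in which libraries of a line share that line. Among 10659 genes, LTA was most like HIVEP3 (r = 0.880) and then TNF (0.849), followed by PTGER4 (0.820). TNF was most like PTGER4 (0.871), AEN (0.865) and PDE8A (0.853). LTB followed the contrast of HG3 with the other lines, as did AC025678.3 (0.983), FBXO10 (0.981) and NCF1 (0.978). TNFSF9 was most like ACKR3 (0.982) and EPAS1 (0.969), TNFSF4 like BATF3 (0.957) and LAMP3 (0.955), and CD70 like STARD10 (0.956) and EMP3 (0.935). Among the ligands, CD70 and TNFSF9 gave 0.851 and TNFSF4 and TNFSF9 0.795, whereas LTB ran against TNFSF9 (-0.872), TNFSF4 (-0.830) and CD70 (-0.736).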

How the data were processed

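The authors deposited 1 table of raw read counts per gene for all 18 libraries. The labels name a ReliaPrep RNA kit and a stranded Lexogen QuantSeq preparation, and the submitters' processing notes name FastQC, MultiQC, Trimmomatic, STAR, featureCounts and the build hg38; versions, the annotation and the handling of duplicates are not given in the sources used here. The methods of the study name another extraction kit. Counts carry no molecular identifiers, so limits from counts cover counting error only.

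The ligands and gene lists were chosen with earlier results of these data known. CPM of genes used library totals multiplied by TMM factors. Marker sums, the check in PCL12 of genes high in MEC2, and the 3-read limit used library totals. Tests used edgeR 4.0.16 in R 4.3.3 (TMM factors, robust quasi-likelihood, 6 group means, 12 residual degrees of freedom), with limma 3.58.1 and DESeq2 1.42.0 as alternatives; Python 3.11.15 and SciPy 1.17.1 did the rest. The script was tested on simulated data. Named genes were all 10 ligands, genes of the related lists that met the DEG definition or an adjusted p below 0.05 or are a ligand's receptor, and for each ligand the 3 genes of highest correlation; of these, the ones that bear on a ligand are printed.

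The series pairs 1 stimulated with 1 unstimulated sample in each replicate series, so numbers pair samples within a line. Deviations from the group means over 13991 genes correlated within pairs at 0.259, 0.212 and 0.480 (HG3), 0.189, -0.0133 and 0.611 (MEC2), and 0.607, 0.494 and 0.515 (PCL12). In MEC2, CpG replicate 1 correlated more with unstimulated replicate 2 (0.449) and CpG replicate 2 with unstimulated replicate 1 (0.388) than with their own numbers, so the pairing of these replicates, unlike that of replicate 3, rests on the description of the series alone. Promoters came from RefSeq (GRCh38.p14) and positions from GENCODE v44. The closing section gives the effect of other scalings, filters, tools and left-out libraries.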

Additional observations from a re-analysis of the deposited data

How the results depend on the processing

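The tally here covers TNF and LTA in every comparison, and the other ligands except TNFSF8 only on average and between unstimulated lines. Within-line responses of those other ligands are outside it. For 48 changes of single ligands, 1026 alternative values were computed. Direction and side of the threshold were kept in 920, 29 lost and 24 gained a call, and 53 changed sign, in 10 changes that were at most 0.44 in size. The cause of these shifts was not tested. Alternatives with PCL12 replicates 2 and 3 or all of PCL12 left out together with or without the replicate block, the sign permutation, and the pairs left out under the block were chosen after seeing the data. The number of ligands meeting the DEG definition in HG3 (158 genes in all) went from 0 to 1 (LTA) with DESeq2 (251 genes), without mitochondrial genes (160), with no filter (365 of 42248 tested), with the replicate block in edgeR (233) and limma-voom (276), without PCL12 (100 of 27980), and with the block without PCL12 replicates 2 and 3 (177 of 30818). In PCL12 (37 genes) it went from 0 to 1 (LTA) with no filter (128) and with the block in edgeR (77), in limma-voom (238) and without PCL12 replicates 2 and 3 (307). The averaged count went from 1 to 0 with the replicate block (143 genes against 168) and with the sign permutation. Unstimulated PCL12 against HG3 went from 6 to 3 without PCL12 replicates 2 and 3. Leaving out single libraries or pairs gave 0 to 1 in HG3, PCL12, the average and the difference PCL12 minus MEC2, and 0 to 2 in MEC2. In MEC2, TNF was called without CpG replicate 3 (1.19) and without unstimulated replicate 1 (1.01). With the block it was called without the replicate 3 pair (1.05). Between unstimulated PCL12 and MEC2, TNFSF10 was called in limma-voom (-1.6) and without PCL12 unstimulated replicate 2 (-1.98). The shares of all genes called in these left-out fits are not given here, so the counts cannot be set against them.

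Signs changed as follows. The average of CD70 was 0.03 in limma-voom and 0.0058 in limma-voom with the block, and -0.14 to 0.14 over left-out libraries or pairs. Over left-out libraries or pairs the averages were -0.13 to 0.31 for TNFSF10 and -0.54 to 0.13 for TNFSF13B. Differences in response were -0.24 to 0.38 (TNF, MEC2 minus HG3), -0.78 to 0.09 (LTA, MEC2 minus HG3), -0.1 to 0.21 (TNF, PCL12 minus HG3), -0.39 to 0.43 (LTA, PCL12 minus HG3) and -0.29 to 0.34 (TNF, PCL12 minus MEC2). For LTA in PCL12 minus HG3, limma-voom gave 0.1, the edgeR block 0.01, the limma-voom block 0.00069, leaving out PCL12 replicates 2 and 3 0.53, and both together 0.63. For TNF in PCL12 minus MEC2, limma-voom gave -0.02, no filter -0.0081 and leaving out PCL12 replicates 2 and 3 -0.04. Unstimulated PCL12 against MEC2 gave 0.12 for CD70 without PCL12 replicates 2 and 3, -0.24 to 0.15 over left-out libraries, and -0.08 to 0.36 for TNFSF9.

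Without the block, the adjusted p of the TNF average ran from 0.00167 to 0.229 over left-out libraries (highest without HG3 CpG replicate 1) and was 0.000542 in DESeq2, where LTA had 0.0991. Between unstimulated lines, where replicate numbers share only a number, a shared block gave adjusted p of 0.0192 for LTA (PCL12 against MEC2) and 0.0237 for TNFSF13B (PCL12 against HG3). TNFSF8 had reads in 3 of 18 libraries, so its response could not be estimated at this depth.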
